A study of Mus musculus with 59 samples.

Results

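The acyl-CoA thioesterase genes Acot1 to Acot6 lie side by side on mouse chromosome 12, and Acot12 lies alone on chromosome 13. Chromatin immunoprecipitation followed by sequencing (ChIP-seq) was used in mouse liver to map the repressor BCL6 and the nuclear receptors PPARα and PPARδ. Positions of called peaks were available in 7 lists, each made from 3 livers. The lists covered BCL6, PPARα and PPARδ in male wild-type (WT) C57BL/6 mice fed standard chow ad libitum, the same factors in male WT C57BL/6 mice fasted overnight, and BCL6 in fed male Bcl6 fl/fl mice of the C57BL/6 strain. The Bcl6 fl/fl mice carry floxed Bcl6 alleles and no Cre, so BCL6 is present. No mouse in these lists lacked any of the 3 factors, and the labels gave no age.

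A peak was counted for a thioesterase gene if its center lay inside the gene, or if the nearest transcription start site (TSS) of any protein-coding RefSeq transcript, at most 100 kb away, belonged to the gene. By this rule 108 of 102931 peaks fell to 6 of the 7 genes. Peaks of all lists whose centers lay within 200 bp of each other were joined into sites, which gave 25 sites at the thioesterase genes of 40478 in all. A list states only that a peak was called, with no height or read count, so a site can be present or absent in a list and no value has an error between livers. The depth of the libraries is unknown. A site missing from a list may therefore have been bound below the calling threshold. Confidence intervals are 95% exact Clopper-Pearson intervals and cover counting error only, since sites are not replicates.

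Acyl-CoA thioesterases split fatty acyl-CoA into free fatty acid and coenzyme A, and so set how much of each is available in the compartment where the enzyme sits. Acot1 is the cytosolic and Acot2 the mitochondrial enzyme for long-chain acyl-CoA, whereas Acot3, Acot4, Acot5 and Acot6 act in peroxisomes on medium- to long-chain, dicarboxylic, medium-chain and methyl-branched substrates. Acot12 is a structurally unrelated cytosolic enzyme that hydrolyses acetyl-CoA. Several of the family are textbook targets of PPARα in liver, where fasting raises fatty acid oxidation, and BCL6 is a zinc finger repressor best known from germinal center B cells.

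The sites of Acot1, Acot4 and Acot3 included a family of 4 related sequences. Each pair of the 18 chromosome 12 windows of 200 bp, centered on a site, was aligned locally on both strands with a score of 1 per match and -1 per mismatch. Of 153 pairs, the 6 with the highest scores, 19 to 152, were the 6 pairs among 4 windows. These were the sites 10011 bp upstream and 11245 bp downstream of the Acot1 TSS, 5335 bp upstream of the Acot4 TSS and 1287 bp upstream of the Acot3 TSS. The other 147 pairs scored at most 16. The stretch of 45 bases that the 4 windows share without a gap is printed here, because it recurs at some of the most widely called sites of the locus. Capitals mark the 28 positions at which all 4 carry the same base. The stretches lie on the plus strand of mm10 at chr12:83999428-83999472, chr12:84020722-84020766, chr12:84033065-84033109 and chr12:84050763-84050807, in the order of the lines, and none overlaps an exon of a protein-coding transcript.
Acot1 upstream: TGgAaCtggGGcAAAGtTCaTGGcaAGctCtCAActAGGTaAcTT
Acot1 downstream: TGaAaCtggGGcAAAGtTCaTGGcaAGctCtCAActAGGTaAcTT
Acot4 upstream: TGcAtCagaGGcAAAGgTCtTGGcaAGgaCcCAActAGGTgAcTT
Acot3 upstream: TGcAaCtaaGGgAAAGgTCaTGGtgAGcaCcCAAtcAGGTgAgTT

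Against the stretch downstream of Acot1, the stretch upstream of Acot1 was identical at 44 of 45 positions, that of Acot4 at 35 and that of Acot3 at 32. Among the windows of all 40477 sites without an undetermined base, only these 4 reached 32 identical bases, a share of 0.00988%. The median best match over all sites was 20 bases and the highest outside the 4 was 28. The best matches in the other 21 thioesterase windows ran from 18 to 23. No further match of 32 or more bases was present in the chromosome 12 stretch searched, which ran from 30 kb before Acot2 to 20 kb after Acot6. The comparison was chosen after the sequences had been seen, and it describes these windows.

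Both Acot1 members of the family belong to a longer copy, shown here because unique alignment bears on how well it can be read. Capitals mark the bases that differ or have no partner between chr12:83999391-83999578 and chr12:84020685-84020871, both on the plus strand, of which 179 of 188 aligned positions (95.2%) are identical. Their centers are 21256 bp apart, on either side of the gene.
Acot1 upstream copy: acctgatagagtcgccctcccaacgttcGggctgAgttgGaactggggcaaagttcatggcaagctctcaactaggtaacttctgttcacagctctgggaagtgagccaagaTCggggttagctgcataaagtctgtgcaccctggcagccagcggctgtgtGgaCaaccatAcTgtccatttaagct
Acot1 downstream copy: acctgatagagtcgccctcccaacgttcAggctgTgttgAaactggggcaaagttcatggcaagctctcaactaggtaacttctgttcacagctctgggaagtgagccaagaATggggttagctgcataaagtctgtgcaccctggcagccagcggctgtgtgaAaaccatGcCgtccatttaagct

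The Acot4 and Acot3 members share a copy of 118 bp, with 96 positions (81.4%) identical and no gap. It spans chr12:84033001-84033118 and chr12:84050699-84050816 on the plus strand, and the site centers are 17813 bp apart.
Acot4 upstream copy: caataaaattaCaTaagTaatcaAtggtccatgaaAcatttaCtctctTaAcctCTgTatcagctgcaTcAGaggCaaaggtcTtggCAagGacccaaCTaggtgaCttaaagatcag
Acot3 upstream copy: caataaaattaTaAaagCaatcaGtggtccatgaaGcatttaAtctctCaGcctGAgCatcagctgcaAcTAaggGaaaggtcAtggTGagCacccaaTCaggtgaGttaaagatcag

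All 4 sites of the family were in the BCL6 list of fed livers, the BCL6 list of fasted livers, the Bcl6 fl/fl list and both PPARα lists. They differed in PPARδ. The site downstream of Acot1 and the site upstream of Acot4 were called for PPARδ in fed and fasted livers, the site upstream of Acot1 in fed livers only, and the site upstream of Acot3 in neither. The site downstream of Acot1 and the site upstream of Acot4 were the only 2 of the 25 thioesterase sites found in all 7 lists.

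The genes differed widely in the number of peaks. Acot1 had 5 BCL6 peaks in fed livers, 3 in fasted livers and 6 in fed Bcl6 fl/fl livers, with 4 PPARα peaks in fed and 6 in fasted livers and 4 PPARδ peaks in fed and 3 in fasted livers. Acot12 had 5 peaks in each of the 3 BCL6 lists, 6 in each PPARα list, 4 for PPARδ in fed livers and 0 for PPARδ in fasted livers. These genes had the most peaks, 31 each over the 7 lists. Acot4 followed with 24 and Acot3 with 15. Acot3 had 3 peaks in each BCL6 and PPARα list and 0 in both PPARδ lists. Acot2 had 5 peaks and Acot5 had 2, and Acot6 had 0 in every list.

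Of 21774 protein-coding genes, between 0.367% (PPARδ in fasted livers) and 7.38% (PPARα in fed livers) had at least as many peaks as Acot1 in a given list. For Acot12 the share ran from 1.36% to 4.86% over the 6 lists in which it had a peak. The gene spans entered these counts with no correction for length. The stretch from the start of Acot2 to the end of Acot6, 121923 bp at chr12:83987861-84109783, held 16 sites, or 13.1 per 100 kb, and the Acot12 gene, 44823 bp at chr13:91741326-91786148, held 6, or 13.4 per 100 kb. All chromosomes together had 1.49 sites per 100 kb, but that span includes sequence far from any gene, so the spans are unlike.

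**Figure D1:**
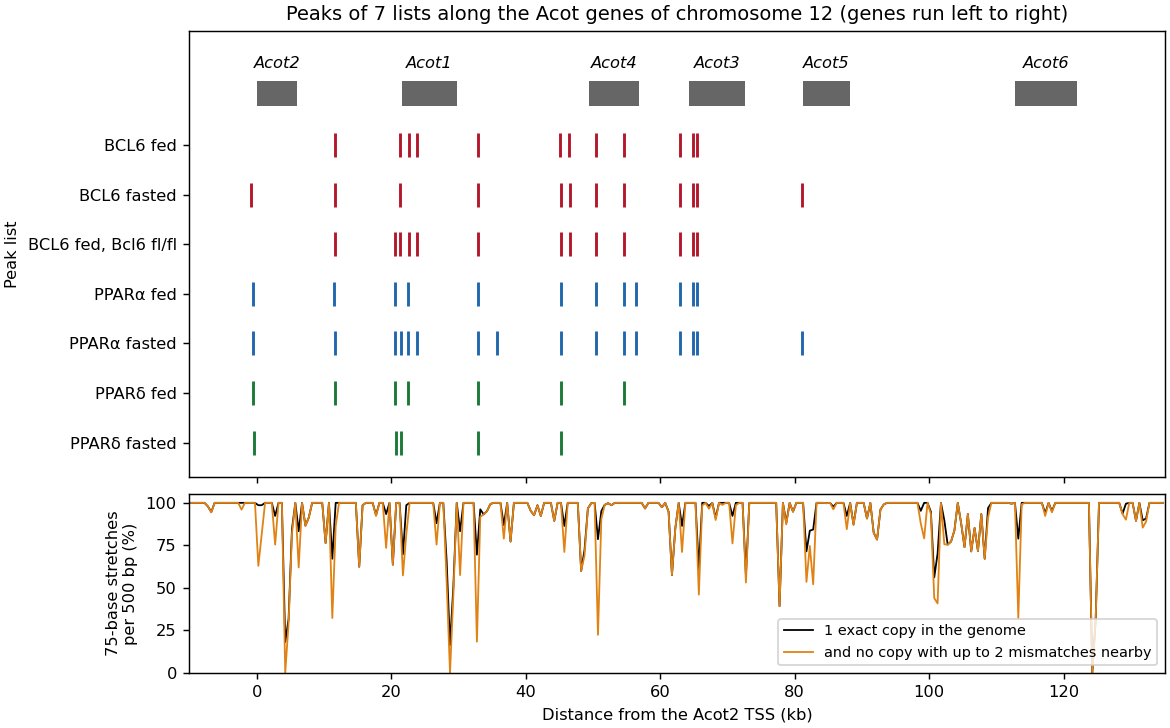
Upper panel, centers of the peaks of the 7 lists (ticks, red BCL6, blue PPARα, green PPARδ) against the distance from the Acot2 TSS in kb, with the 6 genes as grey bars. Lower panel, the percent of 75-base stretches per 500 bp that occur once in the genome (black) and that also have no copy with up to 2 mismatches nearby (orange). Ticks gather around Acot1, Acot4 and Acot3, and none lies at Acot6.

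In the BCL6 list of fed livers 4 of the 7 genes had a peak, against 26.0% of all protein-coding genes, and in the list of fasted livers 6 of the 7, against 19.1%. The Bcl6 fl/fl list had peaks at 4 of the 7, against 28.8% of all genes. The PPARα lists had peaks at 5 of the 7 genes in fed livers and 6 in fasted livers, against 32.2% and 43.4%. The PPARδ lists had peaks at 4 in fed livers and 3 in fasted livers, against 17.1% and 7.79%. The genes with a BCL6 peak in fasted and not in fed livers were Acot2 and Acot5. For Acot2 this rests on the nearest-start rule, since a site at -6080 bp from its TSS, called for BCL6 in all 3 lists, is nearer to the gene Heatr4. The fasted BCL6 list as a whole held 9613 peaks and the fed list 15642.

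Neighbouring Acot genes share coding sequence, which limits where 75-base reads can be placed. The coding sequences of Acot1 and Acot2 were identical at 95.5% of aligned bases, Acot3 and Acot5 at 85.8%, and Acot1 and Acot6 at 75.9%. Within the 7 genes 95.8% of all 75-base stretches occurred once in the genome, from 84.7% in Acot2 and 87.0% in Acot1 to 98.1% in Acot4 and Acot6. The 300 bp around every site were at least 99.6% single-copy. Near copies, with up to 2 mismatches, were searched within 400 kb of the cluster and for the chromosome 12 sites only. The 7 Acot12 sites therefore kept their exact-copy value of 100%. With near copies counted, 22 of the 25 sites, these 7 among them, were at 100%. The site upstream of Acot1 fell to 67.3% and the site downstream to 50.4%. Both were called in most lists, the upstream site in 6 of 7 and the downstream site in all 7. Acot6 had no peak. Of the Acot6 gene 98.1% was single-copy, and 95.6% with near copies counted. In the 1000 bp around its TSS these shares were 99.5% and 82.4%. Whether peaks were missed in the repeated stretches of Acot2, Acot1 or Acot6 was not tested.

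Acot2, the mitochondrial long-chain enzyme, had by the nearest-start rule 2 promoter sites and no site at which BCL6 and a PPAR were joined. The sites are shown because they lie 433 bp apart and divide the factors. The window chr12:83986856-83987055, plus strand, belongs to the site 905 bp upstream of the TSS, which was called for BCL6 in fasted livers and in no other list. The window chr12:83987289-83987488, plus strand, belongs to the site 472 bp upstream, called for PPARα and PPARδ in both feeding states and for BCL6 in none of the 3 lists. Capitals mark a match, on either strand, to 2 copies of AGGTCA spaced by 1 base, the DR1 element that PPAR and RXR bind as a dimer, with at most 2 mismatches.
Acot2 BCL6 site: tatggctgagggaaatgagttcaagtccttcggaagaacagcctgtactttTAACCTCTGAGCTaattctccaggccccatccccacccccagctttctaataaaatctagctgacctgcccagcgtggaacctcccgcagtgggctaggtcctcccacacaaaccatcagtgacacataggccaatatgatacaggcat
Acot2 PPAR site: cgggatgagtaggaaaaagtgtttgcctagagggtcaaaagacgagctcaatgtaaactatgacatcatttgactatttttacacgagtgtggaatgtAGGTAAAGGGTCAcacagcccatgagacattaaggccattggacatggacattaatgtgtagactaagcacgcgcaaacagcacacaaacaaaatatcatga

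In the PPAR site the element lies 4 bp from the site center. The start of the neighbouring gene Heatr4 is 2990 bp from that of Acot2. The site at -6080 bp, which the rule gives to Heatr4 and which is not among the 25, was in all lists but PPARδ in fasted livers. The paper's ChIP primer list names a region at almost this distance for Acot2. By that naming Acot2 would have a site with BCL6 and PPARα.

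Acot1, the cytosolic long-chain enzyme, had 6 sites, and its promoter region held calls for BCL6, PPARα and PPARδ in several combinations. At 241 bp upstream of the TSS, BCL6 was called in fed, fasted and Bcl6 fl/fl livers, and PPARα and PPARδ were called in fasted livers only. At 1026 bp upstream, PPARα and PPARδ were called in both states, and BCL6 in the Bcl6 fl/fl list alone of the 3 BCL6 lists. In intron 1, the site 934 bp downstream of the TSS was called for BCL6 and PPARδ in fed livers only and for PPARα in both states. The site 2165 bp downstream, also in intron 1, was called for BCL6 in fed livers only and for PPARα in fasted livers only. The Bcl6 fl/fl list held both intron 1 sites. The site 241 bp upstream was the only 1 of the 12 PPARδ sites called in fasted livers alone.

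Within the site 241 bp upstream of Acot1, the centers of the peaks fell into 2 places. The 3 BCL6 peaks were centered 263 to 328 bp upstream of the TSS and the fasted PPARα and PPARδ peaks 154 and 163 bp upstream. All lay in the same joined site because each center was within 200 bp of the next. When only centers within 100 bp were joined, the number of thioesterase sites rose to 27, as this site and that of Acot5 were each divided. The number with BCL6 and PPARα fell from 17 to 15.

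Acot4, the peroxisomal enzyme for dicarboxylic acyl-CoA such as succinyl-CoA, had 6 sites. The promoter site 58 bp upstream of the TSS and the site 4083 bp downstream in intron 2 were called for BCL6 in all 3 lists and for PPARα in both states, and the second of them also for PPARδ in fed livers. The site 3986 bp upstream was called in all 3 BCL6 lists and in no PPAR list. The site 5860 bp downstream, in exon 3 beyond the coding sequence, was called for PPARα in both states and for no other factor. The site 14851 bp upstream was called for PPARα in fasted livers alone. It counts for Acot4 through a predicted start 13726 bp away. The curated Acot1 start is 14026 bp away, and with curated transcripts only Acot1 would have 7 sites and Acot4 5.

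Acot3, a peroxisomal enzyme for medium- to long-chain acyl-CoA, had 3 sites, each called in all 3 BCL6 lists and both PPARα lists and in neither PPARδ list. They lay 1287 bp upstream and 632 and 1145 bp downstream of the TSS. The last 2 fall in intron 1 of the longer curated transcript and in exon 2, ahead of the coding sequence, of the other. Acot5, a peroxisomal medium-chain enzyme, had 1 site, 396 bp upstream of the TSS, called for BCL6 and PPARα in fasted livers only. Its window, chr12:84068828-84069027 on the plus strand, is printed because it is the only thioesterase site at which both factors appeared only in fasted livers. The BCL6 peak was centered 448 bp and the PPARα peak 345 bp upstream of the TSS. They form 1 site with centers joined within 200 bp, and separate sites with centers joined within 100 bp. It held no match to either searched element.
Acot5 promoter site: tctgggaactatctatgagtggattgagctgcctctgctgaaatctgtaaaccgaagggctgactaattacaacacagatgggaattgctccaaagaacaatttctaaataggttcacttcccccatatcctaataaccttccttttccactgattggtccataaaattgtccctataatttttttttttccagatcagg

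Acot6, the peroxisomal enzyme for methyl-branched acyl-CoA, was the only gene of the 7 without a peak. The nearest sites were that of Acot5, 31726 bp upstream of the Acot6 TSS, and a site of the neighbouring gene Dnal1, 23213 bp downstream. The stretch between them, 54939 bp, held no site of any list.

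Acot12, the cytosolic acetyl-CoA hydrolase, had 7 sites. All 6 PPARα sites were called in both states, and all 4 PPARδ sites in fed livers only. The sites 7093 and 24226 bp downstream of the TSS, in introns 1 and 5, were called in every list except PPARδ in fasted livers. The site 8637 bp downstream in intron 1 was called for BCL6 and PPARα in both states and in the Bcl6 fl/fl list. The site 20753 bp downstream in intron 4 was called for BCL6 in fed livers of both genotypes and not in fasted livers. The site 18468 bp downstream, with its center in exon 4, was called for BCL6 in fasted livers only, for PPARα in both states and for PPARδ in fed livers.

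The fed BCL6 lists of the 2 genotypes placed their Acot12 promoter peak differently. WT C57BL/6 livers had BCL6 429 bp upstream of the TSS, in fed and in fasted mice, where no PPAR was called. Fed Bcl6 fl/fl livers had BCL6 151 bp upstream, at the site 121 bp upstream that PPARα occupied in both states and PPARδ in fed livers. Of the 17 thioesterase sites with fed BCL6 in WT C57BL/6 livers, 16 (94.1%, interval 71.3% to 99.9%) were also in the Bcl6 fl/fl list, against 69.5% over all fed BCL6 sites. The Acot12 promoter site was the exception.

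**Figure D2:**
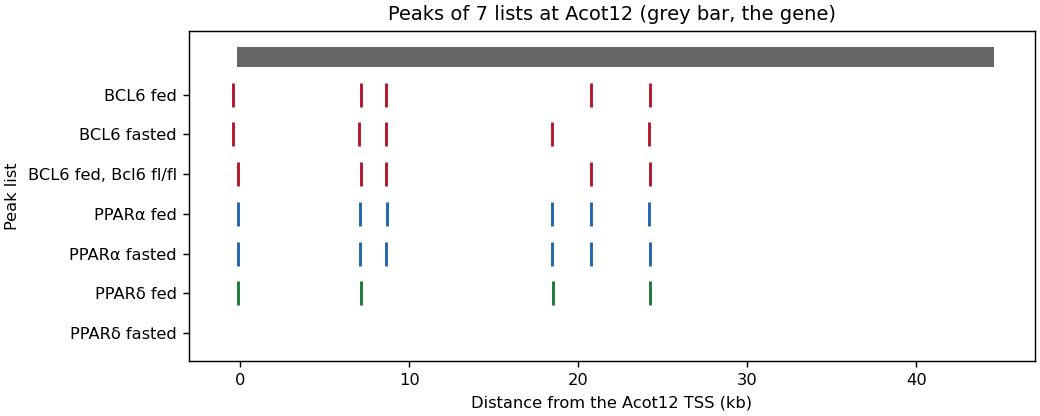
Centers of the peaks of the 7 lists (ticks, red BCL6, blue PPARα, green PPARδ) against the distance from the Acot12 TSS in kb, with the gene as a grey bar. The PPARα rows hold 6 ticks in each state, and the fasted PPARδ row is empty where the fed row has 4.

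Counted over all 7 genes, 17 of the 25 sites (68.0%, interval 46.5% to 85.1%) had BCL6 and PPARα in WT C57BL/6 livers, against 33.7% of all sites, and 9 (36.0%, interval 18.0% to 57.5%) had all 3 factors, against 11.5%. The intervals lie above the shares over all sites, but this is no test of enrichment. The sites share a locus and in part a sequence and are not independent. The genes were also chosen with earlier results of these data known. Acot1 and Acot12 had 5 sites with BCL6 and PPARα each, Acot3 and Acot4 had 3 each, Acot5 had 1, and Acot2 and Acot6 had 0. At 11 sites (44.0%) both factors were called in fed and in fasted livers, against 14.8% of all sites. At the 17 sites the centers of BCL6 and PPARα peaks were a median of 14.5 bp apart (2 to 126 bp), against 25.0 bp over 13640 such sites.

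Most BCL6 and PPARα sites at these genes were called in both feeding states. A call in both states does not show equal binding, since the lists give no height. By tag density, the paper reports less BCL6 and more PPARα at shared sites in fasted livers, with Acot4 and Acot3 among its examples. It also reports ChIP followed by quantitative PCR at shared sites in both states. Its ChIP primer list includes regions of Acot4 and Acot3. Of 20 BCL6 sites 14 (70.0%, interval 45.7% to 88.1%) were called in both states, against 43.7% of all BCL6 sites. In fed livers only, 3 (15%, interval 3.21% to 37.9%) were called, against 45.3%, and in fasted livers only 3 (15%, interval 3.21% to 37.9%), against 11.0%. With the Bcl6 fl/fl list as the fed list, the number in fed livers only was 5 of 22 (22.7%), against 50.2%. The BCL6 sites of fed livers only were both intron 1 sites of Acot1 and the intron 4 site of Acot12. Those of fasted livers only were at the Acot2 and Acot5 promoters and in exon 4 of Acot12.

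Of 22 PPARα sites 18 (81.8%, interval 59.7% to 94.8%) were called in both states, against 51.3% of all PPARα sites. In fasted livers only, 4 (18.2%, interval 5.19% to 40.3%) were called, against 35.8%, and in fed livers only 0 (interval up to 15.4%), against 12.8%. The 4 were at Acot1 (241 bp upstream and 2165 bp downstream), Acot4 (14851 bp upstream) and Acot5.

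PPARδ had the fewest peaks at these genes in either state, 11 in fed and 5 in fasted livers. Of 12 PPARδ sites 7 (58.3%, interval 27.7% to 84.8%) were called in fed livers only, against 70.7% of all PPARδ sites. In both states 4 (33.3%, interval 9.92% to 65.1%) were called, against 18.7%, and in fasted livers only 1 (8.33%, interval 0.211% to 38.5%), against 10.6%. These intervals include the shares over all sites. The 4 sites of both states were at the promoter of Acot2, at 1026 bp upstream and 11245 bp downstream of Acot1 and at 5335 bp upstream of Acot4. All 12 PPARδ sites had PPARα in at least 1 state, and so did 85.0% of all PPARδ sites. The whole fasted PPARδ list was short, 2399 peaks against 7328 in fed livers.

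**Figure D3:**
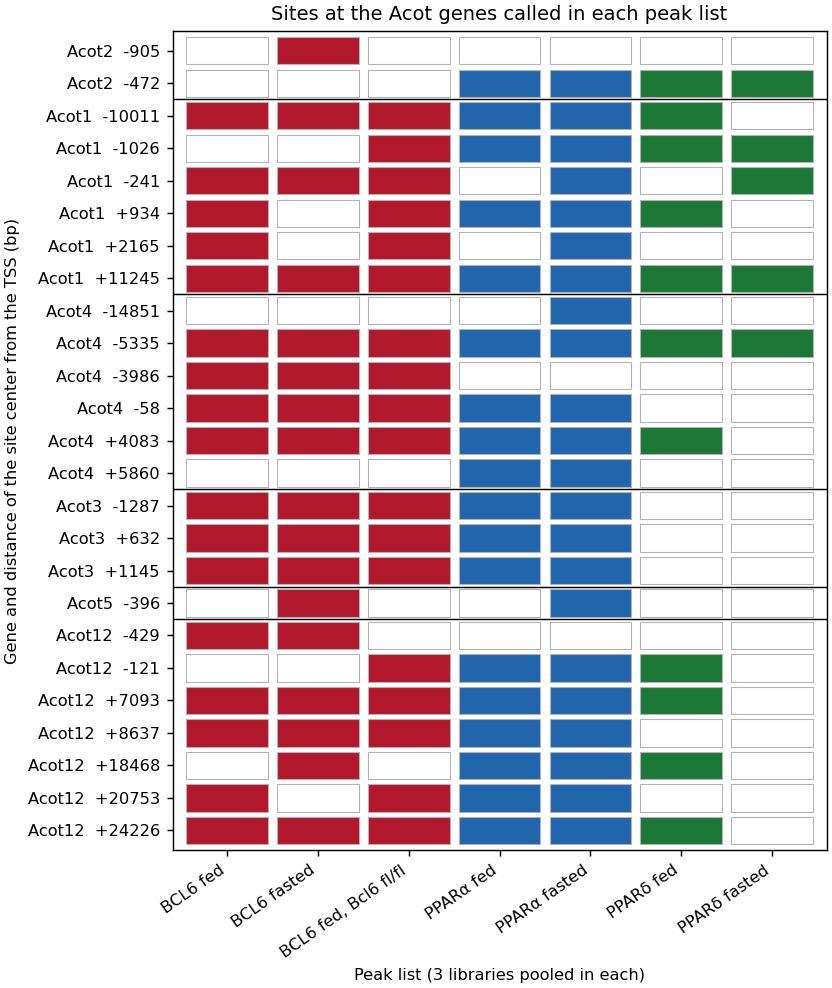
Calls (filled cells) of the 25 thioesterase sites, labelled by gene and by the distance of the site center from the TSS in bp, in each of the 7 peak lists. Red is BCL6, blue PPARα and green PPARδ. The fasted PPARδ column has 5 filled cells, none of them at Acot12 or Acot3.

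**Figure D4:**
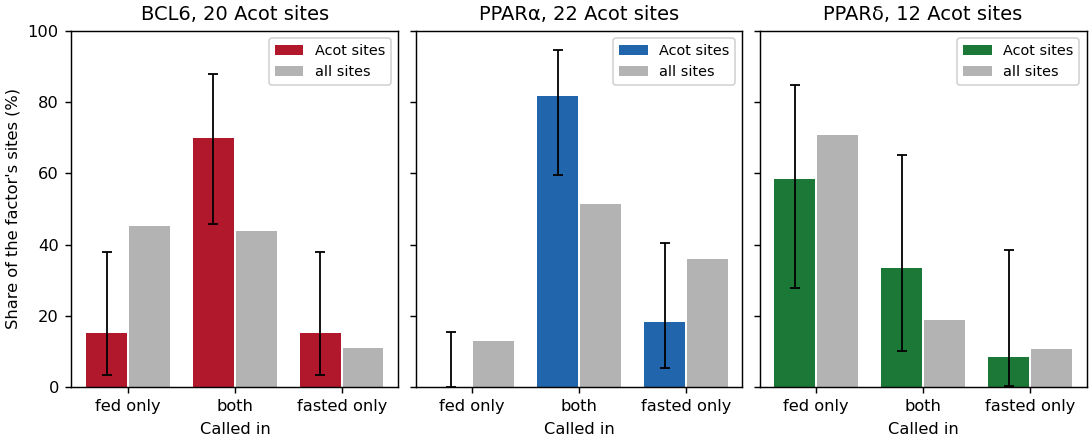
Share of the sites of each factor by the feeding state in which they were called (fed only, both or fasted only), for the thioesterase genes (colored bars, with 95% exact binomial intervals) and for all sites (grey bars). For BCL6 the both-states bar stands at 70.0% and the fed-only bar at 15%, where all sites have 43.7% and 45.3%. The fed lists plotted are those of WT C57BL/6 livers.

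As over all sites of the series, few of the thioesterase sites held a match to the searched PPAR or BCL6 element. The PPAR element defined above occurred in 6 of the 25 windows of 200 bp (24.0%, interval 9.36% to 45.1%), against 13.1% of all site windows and 3.11% of windows 2 kb to either side. A match to the BCL6 sequence TTCCTAGAA on either strand, with at most 1 mismatch, occurred in 2 windows (8.00%, interval 0.984% to 26.0%), against 10.9% of all site windows and 6.99% of the windows 2 kb away. Both intervals include the shares over all sites. In windows of 50 bp the PPAR element was at 3 sites (12.0%, against 4.21%), and with 1 mismatch fewer in 200 bp at 1 site (4.00%, against 3.07%). No window had both elements. The matches are letters in a window and not proven binding sites.

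The matches are shown because they set which genes carry a readable element, each on its own strand with the element in capitals. The PPAR element with the fewest mismatches, 1, was that of the Acot12 promoter, 104 bp upstream of the TSS at chr13:91741411-91741423 on the minus strand. The Acot4 promoter element, on the minus strand at chr12:84038366-84038378, ends next to the TSS. The other Acot12 elements were in the windows of exon 4, chr13:91759972-91759984, and of intron 5, chr13:91765656-91765668, both on the plus strand. The Acot3 match to the BCL6 sequence, chr12:84052845-84052853 on the minus strand, had 0 mismatches, and the nearer of a pair of matches in Acot4 intron 2 lay at chr12:84042409-84042417 on the minus strand.
Acot12 promoter PPAR element: cttaggAGGTGAGAGGTCAgggtcc
Acot4 promoter PPAR element: acagacCGGCCAAAGGTCAtgcttc
Acot12 exon 4 PPAR element: gtatcaAGGTCATAGTCCAggacaa
Acot12 intron 5 PPAR element: aaattcAGGTCAAAGTTCCtgatct
Acot3 BCL6 element: gaaaaggtTTCCTAGAAtgagtcaa
Acot4 intron 2 BCL6 element: tcgaggcaATCCTAGAAaatgatta

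By factor, the PPAR element was in 5 of the 22 PPARα windows (22.7%, against 13.9% of all PPARα sites), 4 of the 12 PPARδ windows (33.3%, against 21.0%) and 4 of the 20 BCL6 windows (against 11.8%). A BCL6 element was in 2 of the 20 BCL6 windows (10.0%, against 15.3% of all BCL6 sites). It was in 2 of the 22 PPARα windows (9.09%, against 7.69%) and 1 of the 12 PPARδ windows (8.33%, against 9.42%). None of the 4 related windows of Acot1, Acot4 and Acot3 held either element at these limits. The RefSeq promoter table, 300 bp around each start on GRCm38.p6, held 6 of the 7 genes and not Acot6. In it the PPAR element was in the promoters of Acot12 and Acot4, and in 3.86% of all promoters. The BCL6 element was in no thioesterase promoter and in 8.63% of all promoters.

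Related genes of acyl-CoA metabolism ranged below and above these 7 genes in sites per gene. The 8 other thioesterase genes, Acot7 to Acot11, Acot13, Them4 and Them5, had 18 sites, 6 of them with BCL6 and PPARα, and a median of 2 sites per gene against 3 for the 7 genes. Acot11 had the most, 5, and Acot9 and Acot10 had 0. The acyltransferases Baat, Acnat1 and Acnat2, which belong to the same protein family as Acot1 to Acot6, had 16 sites, 8 of them with BCL6 and PPARα, and a median of 5 sites per gene. Acnat1 had 8 of the 16. The 10 genes of acyl-CoA formation and CoA hydrolysis had 60 sites, 30 with BCL6 and PPARα, and a median of 4. Acsl1, the main liver acyl-CoA synthetase, had 19 of these sites and Nudt7, a peroxisomal CoA hydrolase, 12. Over all 21774 genes the median was 0 sites.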

How the data were processed

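The submitters' notes and methods state that single-end reads of 75 bases were aligned to mm10 with Bowtie, keeping reads with a unique place and at most 1 per start. The authors then ran HOMER on the pooled tags of 3 replicates, with input as the background, and kept peaks with at least 2-fold enrichment in DESeq2. The deposited lists hold peak positions in bp, with no score or normalization. Of 59 samples, 21 enter the 7 lists, and the others were not analysed here.

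Genes, starts and sequence came from RefSeq on GRCm38.p6, which has mm10 coordinates. Peak centers within 200 bp were joined by single linkage, and site positions are mean centers. Distances refer to the nearest curated start, whereas genes were assigned with predicted transcripts as well. A promoter was 1000 bp before to 100 bp after a start. Repeats were not masked. Copies of 75-base stretches were counted exactly over all chromosomes on both strands. Joining and scanning were tested on simulated data. Named genes were the 7 thioesterases, the genes flanking them, and those with the most sites in 3 lists of related genes. The members and lists were chosen with earlier results of these data known. Python 3.11.15, NumPy 2.4.6, SciPy 1.17.1, Biopython 1.88 and Matplotlib 3.10.9 were used.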

Additional observations from a re-analysis of the deposited data

How the results depend on the processing

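Joining centers within 100 bp, within 400 bp or by an overlap of at least 1 bp, taking starts within 10 kb or 1 Mb, and using curated transcripts only gave 23 to 27 sites and 15 to 18 with BCL6 and PPARα. Counting only peaks inside a gene gave 13 sites, 11 with BCL6 and PPARα and 5 with all 3 factors. With the Bcl6 fl/fl list in place of the WT C57BL/6 fed list, 5 BCL6 sites were called in fed livers only. The PPAR element was in 3 windows of 50 bp (12.0%, against 4.21% of all sites) and, with 1 mismatch fewer, in 1 window (4.00%, against 3.07%). The BCL6 element was in 0 windows of 50 or 100 bp and, without mismatches, in 1. With near copies counted, the single-copy share over all thioesterase genes was 93.7%. Near copies were not searched for Acot12, which therefore stayed at 98.0%. Over the chromosome 12 stretch from Acot2 to Acot6 the share went from 93.7% to 90.8%. No paired analysis was possible because each list pools its replicates, and for the same reason leaving out a replicate was not run. A stricter peak threshold was not run, since the lists hold no scores. Calls carry no depth, so absence from a list is not absence of binding.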
